A study of Mus musculus with 12 samples.

Results

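Bone morphogenetic proteins (BMPs) are secreted ligands, and 8 genes of their pathway are described here in both heart chambers of mice that express expanded CUG repeats (CUG960 +dox) and of MHCrtTA +dox controls. They were chosen by gene symbol, as 6 ligands (Bmp2, Bmp4, Bmp5, Bmp6, Bmp7 and Bmp10) and 2 receptors (Bmpr1a and Bmpr2), from 51826 entries of the gene count table. The set was put together because the levels of Bmp10 and Bmp5 differed between groups of these libraries, so its differences are given as a description and without P values. All 8 had counts in every library and all 8 passed the filter on low counts in every comparison.

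CUG960 mice were homozygous for the TREDT960I transgene, a human DMPK segment (exons 11–15) whose transcript carries 960 interrupted CUG repeats. Its minimal CMV promoter is switched on by dox through a tetracycline response element. DMPK is the gene mutated in the muscle disease myotonic dystrophy type 1. They were also hemizygous for MHCrtTA, in which the cardiomyocyte-specific α myosin heavy chain promoter drives the reverse tetracycline transactivator, so cardiomyocytes are the cells that can express the repeats. MHCrtTA +dox controls carried the transactivator alone, hemizygous. Per the labels, all mice were FVB females of 10 weeks, fed doxycycline (dox) chow from postnatal day 1, so dox and transactivator were common to both genotypes. Atria and ventricles came from the same 6 animals, V327, V333 and V334 for the controls and V119, V120 and V123 for CUG960 +dox, and each of the 12 poly(A)-selected libraries held between 116127966 and 160676189 counts. The count table covers mouse genes and did not measure the transgene. Mouse Dmpk had 439 ± 7.24 CPM (SD, n = 3) in control atria and 472 ± 30.1 in CUG960 atria, and 575 ± 30.3 and 669 ± 80.0 in ventricles, and did not pass the threshold in either chamber (edgeR adjusted P = 0.32 and 0.20).

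BMP ligands are secreted as dimers and bind complexes of type I receptors, such as Bmpr1a, and type II receptors, such as Bmpr2. The receptors phosphorylate SMAD1, SMAD5 and SMAD9, which enter the nucleus with SMAD4 and raise target genes such as the Id genes and the feedback inhibitors Smad6 and Smad7, while secreted antagonists such as noggin and the chordin family keep ligands from their receptors. Bmp10 is known as a ligand of trabecular myocardium in the embryo and of atrial myocardium in the adult, and with Gdf2 (BMP9) it acts on endothelial cells through the type I receptor Acvrl1 (ALK1) and the coreceptor endoglin.

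The sequences directly before the start sites of Bmp10 and Bmp5 are shown because these are the ligands whose levels differed most between genotypes. They are taken from RefSeq (GRCm38.p6, plus strand), which gave promoter windows for 6 of the 8 genes. Each line holds 250 bases that end at the base before the RefSeq start site, at chr6:87428744-87428993 for Bmp10 and chr9:75775115-75775364 for Bmp5, and the capitals mark GATAA or its reverse complement TTATC, the core letters recognized by GATA factors.
Bmp10: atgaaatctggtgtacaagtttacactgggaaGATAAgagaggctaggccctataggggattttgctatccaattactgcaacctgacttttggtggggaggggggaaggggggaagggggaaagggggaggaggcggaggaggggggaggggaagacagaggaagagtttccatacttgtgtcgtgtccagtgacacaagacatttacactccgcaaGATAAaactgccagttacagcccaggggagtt
Bmp5: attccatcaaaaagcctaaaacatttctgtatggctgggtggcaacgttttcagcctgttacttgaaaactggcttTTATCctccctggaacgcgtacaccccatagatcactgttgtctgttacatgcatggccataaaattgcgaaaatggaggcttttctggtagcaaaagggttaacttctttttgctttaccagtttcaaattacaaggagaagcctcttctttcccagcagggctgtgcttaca
GATAA was matched 2 times before Bmp10, beginning 218 and 32 bases upstream of the start, and 1 time before Bmp5, on the other strand, beginning 174 bases upstream. Of 32851 RefSeq windows of the same length, 22.6% held at least 1 match on either strand. The letters GGTGTG, bound by T-box factors, matched neither window on either strand, against 16.3% of all windows. The same held for CATTCC, bound by TEAD factors, against 12.6%, and for the TATA box letters TATAAA, against 12.4%. These are letter matches and not measured binding. In the GENCODE M21 annotation of GRCm38 the genes lie at chr6:87428994-87437677 (Bmp10) and chr9:75775364-75900310 (Bmp5), both on the plus strand, so that the start of Bmp5 is 1 base earlier there than in RefSeq.

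The chamber labels were checked against marker genes. The 8 atrial cardiomyocyte markers summed to between 21890 and 28900 CPM in atria and between 175 and 423 CPM in ventricles, with none at 0, and the 5 ventricular markers summed to between 587 and 1018 CPM in atria and between 19080 and 23180 CPM in ventricles. The ventricular library of mouse V123 stood apart from the other ventricular libraries in the markers Myl7, the atrial myosin regulatory light chain, and Sln, sarcolipin. Its Myl7 was 55.9 CPM and its Sln 18.6 CPM, whereas the ventricles of V119 and V120 had 0.192 and 0.304 CPM of Myl7 and 0.213 and 0.341 CPM of Sln. Control ventricles lay between these at 8.02, 4.98 and 19.3 CPM of Myl7 in V327, V333 and V334. The ventricular changes of the BMP genes are therefore also given without that mouse.

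Bmp10 was abundant in the atria of both genotypes and far lower in ventricles, where it was lower in CUG960 +dox mice than in controls. In control atria it was 2016, 1611 and 1036 CPM (gene counts relative to library size, the latter scaled by trimmed mean of M values, TMM) in V327, V333 and V334. In CUG960 atria it was 1422, 1564 and 1770 CPM in V119, V120 and V123. The CUG960 values lay inside the control range, and the log2 fold change was 0.03 ± 0.21 (SE). In control ventricles Bmp10 was 2.43, 2.39 and 3.75 CPM, from 252 to 420 counts per library. In CUG960 ventricles it was 0.0343, 0.275 and 0.208 CPM, from 5 to 38 counts. The groups did not overlap, and CUG960 ventricles were 16.6-fold lower (log2 fold change −4.06 ± 0.50, SE). Without the V123 ventricles it was −4.21. In this bulk tissue, fewer cells that make a transcript and less transcript per cell cannot be told apart.

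Because ventricular Bmp10 was so much lower than atrial Bmp10, a small amount of atrial tissue would be enough to give ventricular counts, and its level was set beside that of Myl7 for each mouse. The atrial Bmp10 level of a mouse was multiplied by its ventricular Myl7 as a share of its atrial Myl7. In controls this Myl7-scaled level was 5.62, 2.82 and 7.15 CPM in V327, V333 and V334, and measured Bmp10 was 43.3%, 85.0% and 52.4% of it. Measured and scaled levels were thus of the same order in control ventricles. In V119 and V120 the scaled levels were 0.0825 and 0.164 CPM, and measured Bmp10 was 41.6% and 168% of them. In V123 the scaled level was 39.3 CPM against a measured 0.208 CPM, or 0.529%. The V123 ventricles therefore had the highest Myl7 of the 6 ventricular libraries and Bmp10 as low as the other CUG960 ventricles. With Sln in place of Myl7 the measured share was 54.2%, 65.9% and 68.4% in controls, 14.9% in V119, 78.0% in V120 and 0.809% in V123. With Myl4, the atrial essential light chain, it was 47.6%, 70.3% and 60.9% in controls and 3.0%, 15.4% and 0.578% in V119, V120 and V123. With the other atrial markers summed it was 14.8%, 16.5% and 31.8% in controls and 0.189%, 0.779% and 0.62% in CUG960 +dox mice. Nppa, which was itself higher in CUG960 ventricles, was the largest part of this sum in atria and in CUG960 ventricles. It held 16470 of 18550 CPM in the atria of V327 and 86.6 of 170.6 CPM in the ventricles of V119. In the ventricles of V327 and V333, Kcnj3, another atrial marker, was above it, at 50.2 and 60.1 CPM against 48.6 and 54.4 CPM. The share in V119 and V120 therefore depended on the marker, and that in V123 was under 1% with each.

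Nppa, the atrial natriuretic peptide, was 48.6, 54.4 and 84.8 CPM in control ventricles and 86.6, 224 and 152 CPM in CUG960 ventricles, and rose (log2 fold change 1.301 ± 0.313, adjusted P = 0.031). None of the other 7 atrial markers passed the threshold in ventricles by edgeR, and none of them had an unadjusted P value under 0.05. The part of atrial tissue in the ventricular Bmp10 difference was not tested.

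**Figure D1:**
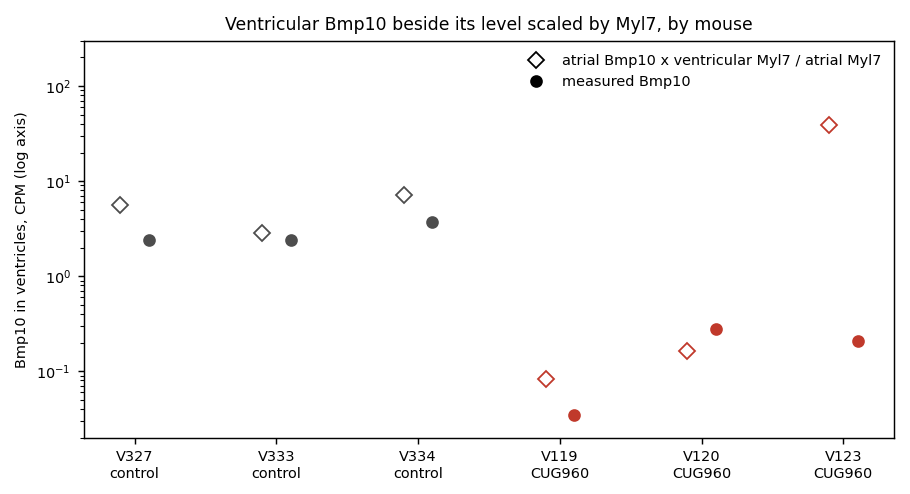
Bmp10 in the ventricles of each of the 6 mice on a log axis in CPM: filled circles are the measured level and open diamonds the atrial Bmp10 level scaled by the ratio of ventricular to atrial Myl7 (grey, control; red, CUG960). The 2 symbols lie within a factor of 3 of each other in 5 mice, whereas in V123 the scaled level is 39.3 CPM and the measured level 0.208 CPM.

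Bmp5, a ligand of the same subgroup as Bmp6 and Bmp7, differed in the other chamber. In control atria it was 7.299, 7.996 and 7.69 CPM in V327, V333 and V334. In CUG960 atria it was 27.1, 24.8 and 26.5 CPM in V119, V120 and V123. Every CUG960 atrial library was above every control, and the level was 3.41-fold higher (log2 fold change 1.77 ± 0.07, SE), with a spread among mice that was small beside this difference. In control ventricles Bmp5 was 1.72, 1.81 and 2.30 CPM. In CUG960 ventricles it was 1.72, 0.732 and 1.21 CPM. The ventricular groups overlapped, with a log2 fold change of −0.67 ± 0.29. The difference between chambers in the CUG960 change was 2.44 ± 0.30 on the log2 scale for Bmp5 and 4.10 ± 0.51 for Bmp10, both toward higher values in atria. Bmp10 reached this through lower ventricles and Bmp5 mainly through higher atria.

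Bmp7 was lower in atria than in ventricles, the reverse of Bmp10, Bmp5 and Bmp6, and its CUG960 libraries lay on opposite sides of the controls in the 2 chambers. It was 0.648, 0.626 and 0.682 CPM in control atria and 0.433, 0.534 and 0.265 CPM in CUG960 atria, from 36 to 109 counts per library. In ventricles it was 4.59, 4.12 and 4.65 CPM in controls and 7.66, 6.62 and 6.76 CPM in CUG960 +dox mice. Neither pair of groups overlapped, and the log2 fold change was −0.66 ± 0.27 in atria but 0.66 ± 0.11 in ventricles.

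Of the other ligands, Bmp2, which shares a subgroup with Bmp4, was 1.43, 1.34 and 1.54 CPM in control atria and 0.768, 0.881 and 1.13 CPM in CUG960 atria. These groups did not overlap (log2 fold change −0.64 ± 0.19), whereas those of ventricles did (−0.19 ± 0.21). Bmp6, known for its part in iron sensing in the liver, was 39.0, 48.3 and 33.0 CPM in control atria and 33.9, 33.0 and 26.3 CPM in CUG960 atria, with overlap (−0.37 ± 0.15). In ventricles it was 16.83, 15.19 and 25.04 CPM in controls and 12.7, 12.6 and 12.9 CPM in CUG960 +dox mice, without overlap (−0.58 ± 0.17). Without V334, the highest control, the log2 fold change in ventricles was −0.33. Bmp4 had group means between 9.37 and 11.6 CPM in all 4 groups, and its groups overlapped in both chambers (−0.09 ± 0.11 and 0.17 ± 0.11).

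Among the receptors, Bmpr1a had almost equal group means by genotype, 143 ± 12.9 and 144 ± 8.22 CPM (SD, n = 3) in control and CUG960 atria and 117 ± 11.6 and 116.5 ± 9.16 CPM in ventricles. Bmpr2 had 167 ± 3.35 CPM in control atria and 139.5 ± 19.4 CPM in CUG960 atria, without overlap (log2 fold change −0.26 ± 0.10), and 122.7 ± 16.7 and 115.9 ± 8.44 CPM in ventricles, with overlap (−0.08 ± 0.11). With total-count scaling the ventricular log2 fold change was 0.10 for Bmpr1a and 0.02 for Bmpr2. Without V123, the ventricular log2 fold change was −0.66 for Bmp5, −0.59 for Bmp6, 0.68 for Bmp7, −0.09 for Bmp2, 0.17 for Bmp4, −0.01 for Bmpr1a and −0.12 for Bmpr2, each within the spread between mice of the value with that mouse.

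**Figure D2:**
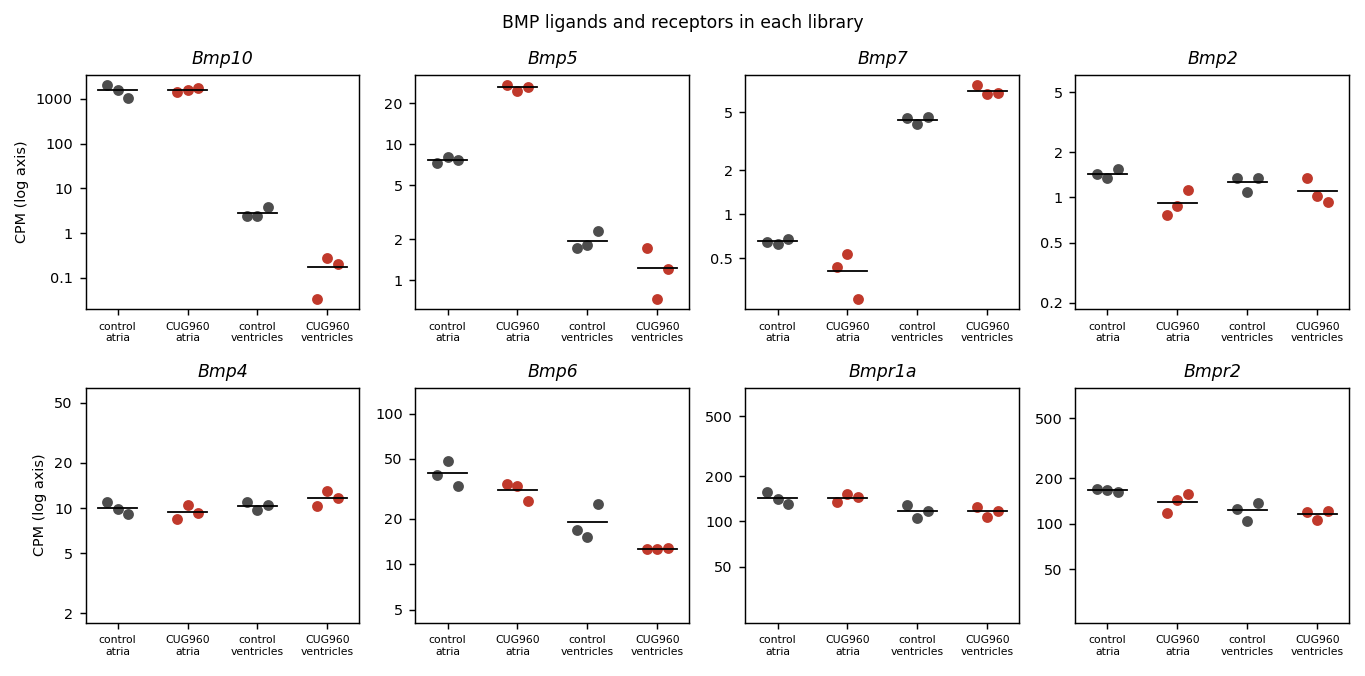
Level of each of the 8 genes in every library in CPM on log axes, 1 panel per gene, with 3 mice per group as points (grey, control; red, CUG960) and the group mean as a line. Bmp10 and Bmp5 are higher in atria than in ventricles in both genotypes and Bmp7 is lower, and the receptors and Bmp4 have similar levels in all 4 groups.

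A gene was called when its adjusted P value was below 0.05 and it differed by 1.5-fold or more. In atria 1 of the 8 genes (Bmp5, higher) was called, where 5.49% of 17650 tested genes were, 3.37% higher and 2.12% lower in CUG960 +dox mice. In ventricles 2 were called (Bmp7 higher and Bmp10 lower), against 4.75% of 16909 genes, 3.0% higher and 1.76% lower. Bmp10 passed the filter on low counts there only through control ventricles. In the fit of the difference between chambers in the CUG960 change, it passed only through groups where it was higher. These calls of Bmp10 add nothing to its values. With total-count scaling, higher genes made up 80.6% of the ventricular calls in place of 63.1%. Groups that did not overlap were found for 4 of 8 genes in atria (Bmp2, Bmp5, Bmp7 and Bmpr2) and 3 of 8 in ventricles (Bmp6, Bmp7 and Bmp10), against 35.7% and 31.2% of all genes. The median log2 fold change of the 8 genes was −0.17 in atria and −0.14 in ventricles, and that of all tested genes −0.01 in both. For the difference between chambers in the CUG960 change, Bmp5, Bmp7 and Bmp10 were past an adjusted P value of 0.05, against 1.38% of 18327 genes, 0.688% with the higher change in atria and 0.693% in ventricles. Since the genes were chosen from these contrasts, the counts are descriptions of the choice.

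**Figure D3:**
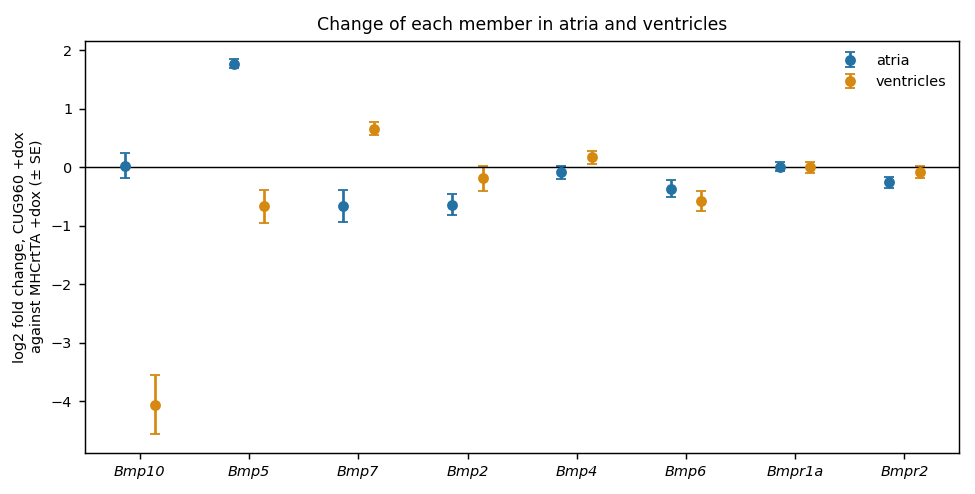
Log2 fold change of CUG960 +dox against MHCrtTA +dox mice for each of the 8 genes in atria (blue) and ventricles (orange), with the standard error of the fit as bars. Bmp10 is at 0.03 in atria and −4.06 in ventricles, and Bmp5 at 1.77 and −0.67.

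Between chambers, Bmp10 was 541-fold higher in atria than in ventricles of controls (log2 fold change 9.08 ± 0.35) and by 13.17 ± 0.41 on the log2 scale in CUG960 +dox mice. Bmp5 was 3.92-fold higher in control atria and 21.2-fold higher in CUG960 atria, and Bmp6 was 2.10-fold and 2.42-fold higher. Bmp7 was 6.85-fold lower in control atria and 17.1-fold lower in CUG960 atria. These 4 were called in both genotypes, where 34.9% of 17451 genes in controls (18.3% higher and 16.6% lower in atria) and 33.6% of 17559 genes in CUG960 +dox mice (17.2% and 16.4%) were. In CUG960 +dox mice Bmp10 passed the filter on low counts only through atria, so its call there adds nothing to its values. Atria and ventricles did not overlap for 6 of the 8 genes in controls and 5 of 8 in CUG960 +dox mice, against 64.6% and 62.6% of all genes. With libraries scaled by total counts alone, the median log2 difference between chambers of all genes moved from 0.03 to 0.49 in controls and from 0.01 to 0.40 in CUG960 +dox mice, and higher genes made up 82.7% and 79.7% of the calls in place of 52.4% and 51.2%. The directions of these 4 genes were the same under that scaling, but Bmp4 turned from −0.06 to 0.39 in controls and from −0.32 to 0.07 in CUG960 +dox mice, and Bmp2 from −0.27 to 0.12 in CUG960 +dox mice. Bmp2 in CUG960 +dox mice was also 0.01 without V119 and −0.53 without V123.

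Levels of different genes were compared as CPM per kilobase of exon. In control atria the order was Bmp10 (346 ± 110, SD, n = 3), Bmpr1a (22.5 ± 2.03), Bmp6 (10.3 ± 1.97), Bmpr2 (9.27 ± 0.186), Bmp4 (4.42 ± 0.407), Bmp5 (1.90 ± 0.0868), Bmp2 (0.405 ± 0.0288) and Bmp7 (0.162 ± 0.00704). Bmp6 and Bmpr2 were closer than their spread. In CUG960 atria Bmp5, at 6.49 ± 0.306, stood above Bmp4, at 4.17 ± 0.450, and Bmp6 (7.97 ± 1.07) and Bmpr2 (7.76 ± 1.08) again could not be ordered. In control ventricles Bmpr1a (18.4 ± 1.82), Bmpr2 (6.83 ± 0.931), Bmp6 (4.88 ± 1.35), Bmp4 (4.60 ± 0.301) and Bmp7 (1.11 ± 0.0720) came before Bmp10 (0.636 ± 0.172), Bmp5 (0.483 ± 0.0780) and Bmp2 (0.354 ± 0.0430), with Bmp6 and Bmp4, and Bmp10 and Bmp5, closer than their spread. In CUG960 ventricles Bmp10 was last at 0.0384 ± 0.0277. Bmp10 ranked 78 of 47523 genes by this measure in control and in CUG960 atria.

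Bmp10 alone made up between 93.9% and 96.3% of the summed level of the 6 ligands in atrial libraries. In control ventricles it made up between 4.63% and 5.97%, and in CUG960 ventricles between 0.0723% and 0.549%. The sum of the other 5 ligands lay between 15.02 and 19.62 CPM per kilobase in atria and between 9.96 and 13.2 in ventricles, with overlap between genotypes in both.

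The genes whose pattern over the 12 libraries was most like that of Bmp10, by Pearson correlation of log2(CPM + 0.1) among 13111 genes averaging 1 CPM or more, were Sbk2 (r = 0.994), Armcx3 (r = 0.994) and Stard5 (r = 0.992). All 3 were higher in atria and lower in the CUG960 ventricles than in the control ventricles. Sbk2, for example, averaged 10.4 CPM in control and 4.26 CPM in CUG960 ventricles against 327.1 and 266.6 CPM in atria. For Bmp5 the closest were Nat8f3 (r = 0.992), Dapp1 (r = 0.987) and Ctps2 (r = 0.985). Nat8f3 averaged 5.11 CPM in control atria, 17.8 CPM in CUG960 atria and 0.769 and 0.562 CPM in ventricles. The 12 libraries share mice and 2 chambers, so each r mostly reflects 4 group levels.

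The rest of the pathway was covered by 84 genes in 6 lists. In atria 9 of 77 tested genes passed the threshold (11.7%, against 5.49% of all genes), 5 higher and 4 lower in CUG960 +dox mice, with a median log2 fold change of −0.17. The 9 include Gdf3, which passed the filter on low counts only through CUG960 atria, so that its call adds nothing to this share. In ventricles 2 of 71 did (2.82%, against 4.75%), 1 in each direction, with a median of −0.002. Without V119 or V123 the ventricular calls were 4, without V327 or V333 1, and without V334 0. Adjusted P values of these genes come from the quasi-likelihood test of edgeR, adjusted over all tested genes by the Benjamini-Hochberg method.

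Among the other BMP and growth differentiation factor ligands, 3 of 14 tested genes were called higher in atria, Inhbb, Mstn and Gdf3. Inhbb, the activin and inhibin βB subunit, was 1.78, 1.74 and 1.21 CPM in control atria and 3.28, 3.86 and 4.25 CPM in CUG960 atria (log2 fold change 1.27 ± 0.18, adjusted P = 0.0038). Mstn, myostatin, an inhibitor of muscle growth, went from 1.47, 1.63 and 1.63 CPM to 1.86, 3.52 and 3.06 CPM (0.83 ± 0.22, adjusted P = 0.042), and its call was lost without any of the mice V327, V333, V334, V120 or V123 (adjusted P between 0.086 and 0.14). Gdf3 was 0.0458, 0.0517 and 0.0638 CPM in control and 0.321, 0.354 and 0.191 CPM in CUG960 atria. It passed the filter on low counts only through CUG960 atria, so its call adds nothing to these values. In ventricles 1 of 9 rose, Gdf15, a secreted stress-response factor, which was 1.74, 0.769 and 1.39 CPM in controls and 2.78, 4.73 and 2.46 CPM in CUG960 +dox mice (1.36 ± 0.32, adjusted P = 0.030). Its call was lost without V333, V334 or V120 (adjusted P = 0.062, 0.063 and 0.11). Gdf2, the partner of Bmp10, was between 1.38 and 2.49 CPM in atria and at most 0.0206 CPM in ventricles, and did not pass the threshold by genotype in atria (−0.15 ± 0.22, adjusted P = 0.69).

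Of the other receptors and coreceptors, 1 of 16 passed the threshold in atria and 1 of 15 in ventricles. Bambi, a pseudoreceptor that dampens BMP signaling and is itself a target, rose in atria from 24.3, 24.3 and 25.2 CPM to 39.6, 42.7 and 38.5 CPM (0.71 ± 0.06, adjusted P = 4.3e-04), and in ventricles was 21.9, 22.9 and 19.0 CPM against 23.0, 35.2 and 36.6 CPM (0.57 ± 0.16, adjusted P = 0.058). Eng, endoglin, fell in ventricles from 187, 171 and 188 CPM to 113.6, 121.7 and 123.4 CPM (−0.60 ± 0.07, adjusted P = 0.0016). Without V327, V334 or V119, or with total-count scaling, its fold change was under 1.5. The endothelial markers moved with it: the 6 genes summed to 855, 714 and 778 CPM in control and 587, 570 and 616 CPM in CUG960 ventricles, with Kdr or Cdh5 the most abundant and none at 0, although none of the 6 passed the threshold there by edgeR (5 had an unadjusted P value under 0.05). Pecam1 (−0.53 ± 0.07, adjusted P = 0.0018) and Cdh5 (adjusted P = 0.022) missed it by the fold limit alone. Their part in the difference of Eng was not tested. Acvrl1 (ALK1) was 26.17, 25.01 and 22.2 CPM in control and 18.5, 21.4 and 16.6 CPM in CUG960 atria, a fold under 1.5 (−0.38 ± 0.10, adjusted P = 0.046). The coreceptors Hfe2 (hemojuvelin), Eng and Neo1 had the highest levels per kilobase of this list, averaged over the 12 libraries.

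Among extracellular inhibitors and modulators, of which Twsg1, Fstl1 and Crim1 had the highest levels per kilobase over the 12 libraries, 3 of 15 passed the threshold in atria and 0 of 14 in ventricles by edgeR, where 3 had an unadjusted P value under 0.05 and DESeq2 also called 0. Crim1 (0.445 ± 0.097, edgeR adjusted P = 0.021) and Fstl3 (0.51 ± 0.13, edgeR adjusted P = 0.038) were higher in CUG960 ventricles but missed the threshold by the fold limit alone. Chrdl2, a chordin-like antagonist, rose from 1.19, 0.839 and 0.957 CPM to 1.98, 2.56 and 2.75 CPM in atria (1.29 ± 0.19, adjusted P = 0.0045). Bmper, which binds BMPs, fell from 4.12, 4.54 and 4.44 CPM to 2.38, 2.49 and 2.38 CPM (−0.85 ± 0.11, adjusted P = 0.0021). Fstl1, a secreted follistatin-like glycoprotein, fell from 141, 147 and 126 CPM to 80.5, 84.3 and 82.0 CPM (−0.75 ± 0.07, adjusted P = 6.3e-04). The 6 fibroblast markers summed to 1676, 1972 and 2031 CPM in control atria and 1608, 1729 and 1478 CPM in CUG960 atria, with Dcn the most abundant, none at 0 and none past the threshold by edgeR (5 had an unadjusted P value under 0.05), and their part in the difference of Fstl1 was not tested. Pdgfra (−0.47 ± 0.09, adjusted P = 0.011) and Col1a2 (−0.36 ± 0.09, adjusted P = 0.031) missed the threshold by the fold limit alone.

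**Figure D4:**
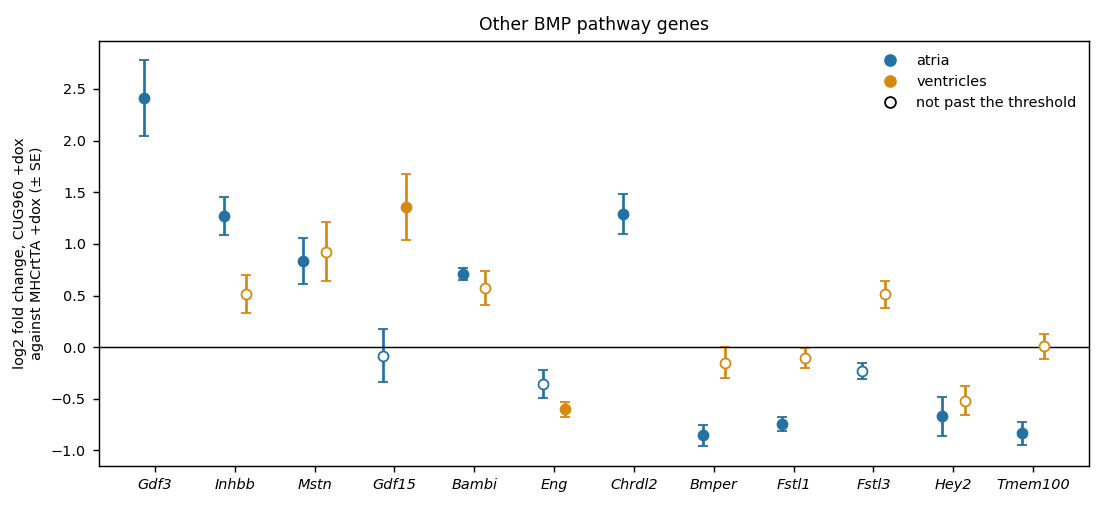
Log2 fold change of CUG960 +dox against MHCrtTA +dox mice, with standard error, for the 12 other pathway genes that passed a threshold by genotype in a chamber or in the difference between chambers (atria, blue; ventricles, orange; open symbols did not pass in that chamber; Gdf3 and Chrdl2 were not tested in ventricles). Inhbb, Bambi and Chrdl2 are among the genes above 0 in atria, and Bmper, Fstl1 and Tmem100 are the lowest.

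The SMADs and their regulators had 0 of 12 genes past the threshold in either chamber by edgeR and by DESeq2, with 3 in atria and 1 in ventricles at an unadjusted P value under 0.05. Averaged over the 12 libraries, Ski, Smad4 and Smurf2 had the highest levels per kilobase, while in control atria Smad6, at 16.2 CPM per kilobase, was above Smad4, at 14.2. Smad1, Smad5 and Smad4, which carry the BMP signal, had log2 fold changes between −0.17 and 0.11 across both chambers. Those of Smad9, which also carries it, were 0.17 ± 0.13 in atria and 0.42 ± 0.18 in ventricles (adjusted P = 0.42 and 0.19). Of the proteases that process ligands or their inhibitors, 0 of 6 passed in atria and 0 of 7 in ventricles by edgeR and by DESeq2, with 4 and 3 at an unadjusted P value under 0.05. Furin, a proprotein convertase, had the highest level per kilobase averaged over the 12 libraries, although Pcsk6 was above it in ventricles (17.3 against 11.6 CPM per kilobase in controls). Furin was 144, 153 and 152 CPM in control and 181, 190 and 187 CPM in CUG960 atria, a fold under 1.5 (0.31 ± 0.06, adjusted P = 0.0096). Pcsk6 lay the other way, at 69.1, 83.8 and 85.0 CPM in control and 53.3, 55.6 and 57.9 CPM in CUG960 atria. Its fold was also under 1.5 (−0.51 ± 0.09, edgeR adjusted P = 0.0078). In ventricles Bmp1, a protease of this list, was 21.49, 20.92 and 23.75 CPM in controls and 28.85, 33.53 and 29.01 CPM in CUG960 +dox mice. It missed the threshold there by the fold limit alone (0.47 ± 0.09, edgeR adjusted P = 0.015).

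Of 17 BMP target genes, 3 passed the threshold in atria (Bambi higher, Hey2 and Tmem100 lower) and 0 in ventricles by edgeR and by DESeq2, with 4 there at an unadjusted P value under 0.05. The widely used readouts of the pathway did not pass in either chamber: the log2 fold change of Id1 was −0.23 ± 0.14 in atria (adjusted P = 0.32) and 0.09 ± 0.17 in ventricles (0.80), that of Id3 −0.32 ± 0.12 and −0.04 ± 0.12, and that of Smad6 −0.29 ± 0.14 and 0.20 ± 0.11. Atoh8, of the same list, was 7.401, 7.427 and 7.899 CPM in control and 10.25, 11.87 and 9.065 CPM in CUG960 ventricles. It missed the threshold there by the fold limit alone (0.46 ± 0.12, edgeR adjusted P = 0.037). Tmem100, a target of BMP9 and BMP10 in endothelium, fell in atria from 12.05, 13.96 and 11.9 CPM to 6.13, 7.57 and 7.56 CPM (−0.83 ± 0.11, adjusted P = 0.0029). In ventricles it was 4.10, 4.28 and 4.47 CPM in controls and 4.07, 4.67 and 4.17 CPM in CUG960 +dox mice. The endothelial marker sum in atria was 640, 664 and 554 CPM in controls and 442, 498 and 447 CPM in CUG960 +dox mice, with Pecam1 the most abundant and past the threshold, and its part in the difference of Tmem100 was not tested. Hey2, a Notch and BMP target that is also a ventricular marker, fell in atria from 2.18, 2.13 and 2.08 CPM to 0.985, 1.43 and 1.60 CPM (−0.67 ± 0.19, adjusted P = 0.049), and lost its call without V327, V333, V334, V119 or V120 (adjusted P between 0.098 and 0.12). Its adjusted P value in atria was above 0.05 in 7 of 12 alternative fits, these included. In ventricles Hey2 was 5.015, 4.625 and 4.311 CPM in controls and 3.786, 2.898 and 3.038 CPM in CUG960 +dox mice. There it missed the threshold by the fold limit alone (−0.52 ± 0.14, edgeR adjusted P = 0.049).

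Between chambers, 42 of 76 tested pathway genes passed the threshold in controls (55.3%, against 34.9% of all genes), 34 of them higher in atria, and 36 of 79 in CUG960 +dox mice (45.6%, against 33.6%), 27 of them higher in atria. The target list had 14 of 17 in controls, 10 of them higher in atria. Hamp, hepcidin, the iron-regulatory hormone, was 61.9, 78.6 and 61.5 CPM in control atria and 0.244, 0.200 and 0.125 CPM in control ventricles (log2 fold change 8.46 ± 0.20, adjusted P = 7.6e-08). Its near-identical copy Hamp2 differed by 6.70 ± 0.25 (adjusted P = 3.5e-07), and reads may be divided between them. Smad6 was 51.6, 63.3 and 41.0 CPM in control atria and 9.00, 10.1 and 11.2 CPM in ventricles (2.36 ± 0.16, adjusted P = 7.1e-06), Smad7 differed by 1.36 ± 0.10 and Id2 by 1.56 ± 0.18. Id1 did not differ beyond the threshold (0.09 ± 0.13). Gdf2, which passed the filter on low counts only through atria, was 1.84, 2.49 and 2.19 CPM in control atria and had no count in 2 of the 3 control ventricular libraries. Gdf15, Msx1 and Hey2 were the lowest in control atria among called genes averaging 1 CPM or more, with log2 fold changes of −1.79 ± 0.31, −1.16 ± 0.13 and −1.13 ± 0.12. In CUG960 +dox mice these were Gdf15 (−3.23 ± 0.30), Hey2 (−1.29 ± 0.21) and Kcp (−1.07 ± 0.19), a secreted modulator of BMP binding. With total-count scaling, 60 and 56 pathway genes passed in controls and in CUG960 +dox mice.

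**Figure D5:**
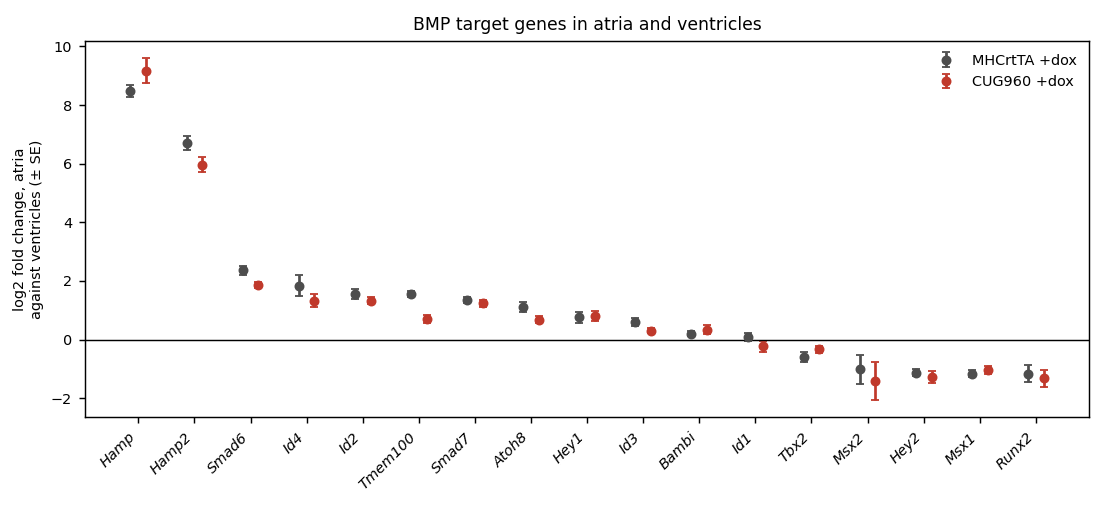
Log2 fold change of atria against ventricles, with standard error, for the 17 BMP target genes in MHCrtTA +dox (grey) and CUG960 +dox (red) mice. Hamp and Hamp2 stand far above the others, and Hey2, Msx1 and Runx2 lie below 0 in both genotypes.

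The difference between chambers in the CUG960 change passed an adjusted P value of 0.05 for 4 of 79 pathway genes (5.06%, against 1.38% of all genes). Tmem100 (−0.84 ± 0.15, adjusted P = 0.020), Fstl1 (−0.64 ± 0.13, adjusted P = 0.029) and Fstl3 (−0.74 ± 0.16, adjusted P = 0.044) changed toward lower values in atria than in ventricles, and Chrdl2 (2.25 ± 0.49) toward higher. Chrdl2 passed the filter on low counts only through atria, and its call adds nothing to its values. Fstl3, a secreted antagonist of activin and myostatin, was 24.3, 24.5 and 25.8 CPM in control and 18.9, 22.3 and 22.3 CPM in CUG960 atria, and 13.1, 10.1 and 12.3 CPM in control and 14.4, 17.8 and 18.5 CPM in CUG960 ventricles. Chrdl2 was 0.108, 0.0475 and 0.0893 CPM in control and 0.0206, 0.0507 and 0.0560 CPM in CUG960 ventricles, where it was too low to be tested within the chamber. None of these 4 calls held in every fit without 1 mouse: Tmem100 and Chrdl2 lost theirs without any of the 6 mice, Fstl1 without V327, V333, V119, V120 or V123, and Fstl3 without V327, V333, V334, V120 or V123, with adjusted P values up to 0.17. With the mouse as a block, 3 of the 4 were called, and Fstl1 was not (adjusted P = 0.052).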

How the data were processed

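Poly(A)-selected stranded RNA from the atria and ventricles of 6 mice was sequenced with paired-end reads. Per the submitters' processing notes and the study's methods, the authors aligned reads to mm10 and the deposited table holds expected counts per gene, estimated by RSEM 1.3.1 on Ensembl GRCm38 genes; all values were whole numbers and no value needed rounding. Of 51826 entries, 92 repeat a symbol. Library totals were 116127966 to 160676189 counts.

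Each of 5 comparisons (genotype within atria and within ventricles, their difference, and chamber within each genotype) was fitted over all genes with the quasi-likelihood test of edgeR 4.0.16 (R 4.3.3) after filterByExpr and TMM scaling. Calls needed a Benjamini-Hochberg adjusted P value below 0.05 and a 1.5-fold difference, without the fold limit for the difference between chambers. Atria and ventricles share mice, and the fits did not block on the mouse: deviations from group means correlated by 0.0454 to 0.32 within a mouse and −0.386 to 0.314 between mice. With 3 mice against 3 a permutation test of a single gene cannot go below 0.1. Nothing in the labels describes technical repeats, and P values measure the spread between mice.

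Lengths came from GENCODE M21 exons, a different release from the one used for counting. The fits were also run on simulated data, of which no outcome is given or used here. The members and lists were chosen with earlier results of these data known. Named genes were the 8 members, marker genes, Dmpk, pathway genes called by genotype or in the difference between chambers, the 3 of each list with the highest level per kilobase, the 3 per direction with the largest chamber change among called genes averaging 1 CPM or more, and the 3 most like Bmp10 and Bmp5. Gdf2 by genotype, Acvrl1, Smad1, Smad5, Smad6, Smad7, Smad9, Id2, Atoh8 and Bmp1 were named after their values were seen. Alternatives were DESeq2 1.42.0, other scalings, filters and fold limits, a joint fit, the mouse as a block, other atrial markers, and fits without each mouse. Results of 2 marker lists are not reported here.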

Additional observations from a re-analysis of the deposited data

Results flagged for a closer look

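Bmp7 was marked because every CUG960 library lay below the controls in atria and above them in ventricles, with a difference between the changes of −1.31 on the log2 scale. It is given as a description and with no P value, since the genes were chosen from these contrasts. The other results were marked because the change in atria differed from that in ventricles by the interaction test of edgeR. Among pathway genes these were Tmem100 (−0.841 on the log2 scale), Fstl1 (−0.643), Fstl3 (−0.741) and Chrdl2 (2.25), the last of which passed the filter on low counts only through atria. Among marker genes these were Tagln, a smooth muscle gene (1.85, adjusted P = 0.045), Nppa (−1.72, adjusted P = 0.049) and Npr3, the natriuretic peptide clearance receptor (−0.751, adjusted P = 0.029). Tagln was 32.3, 17.1 and 18.0 CPM in control atria and 48.5, 34.4 and 73.2 CPM in CUG960 atria, and 46.8, 30.8 and 40.1 CPM in control ventricles and 21.6, 30.6 and 23.7 CPM in CUG960 ventricles. Npr3 was 24.0, 25.6 and 29.3 CPM in control and 41.5, 41.4 and 43.0 CPM in CUG960 ventricles, and its atrial groups overlapped.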

How the results depend on the processing

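Of 445 alternative values of the members' log2 fold changes, 422 moved by less than the spread between mice. With total counts in place of TMM, Bmp4 between chambers in CUG960 +dox mice turned to 0.0675, Bmp4 in controls to 0.39 and Bmp2 in CUG960 +dox mice to 0.12 (0.01 without V119). Values near 0 also changed sign in some alternatives for Bmp6 in the interaction (−0.16 without V334), Bmp10 in atria (−0.19 without V334), Bmpr1a by genotype and in the interaction, and Bmpr2 in ventricles. Genes called in atria (969) became 216 with a log2 limit of 1.5 and 2573 with no fold limit, and pathway genes (9) became 1 and 18. In ventricles 804 became 199 and 1680, and the 2 pathway genes became 0 and 8, 5 with total counts and 4 with all 12 libraries in a single fit. The difference between chambers had 253 genes and 4 pathway genes, or 660 and 7 by DESeq2. Between chambers 6098 genes in controls became 2233 and 9726, with 20 pathway genes at the stricter limit in place of 42, and 5900 in CUG960 +dox mice became 2200 and 9517, with 18 in place of 36, or 56 with total counts. Without 1 mouse at a time, ventricular pathway calls were 0 to 4, interaction calls 74 to 131 genes, and interaction pathway calls 0 to 1. With the mouse as a block, the interaction called 3 pathway genes, the call of Fstl1 being lost, and its count of genes stayed within 1.5 times; chamber calls were 6113 and 5899 genes with 42 and 37 pathway genes. Measured Bmp10 averaged 21% of the scaled level in controls with the other atrial markers, Nppa included, summed, against 0.189%, 0.779% and 0.62% in CUG960 +dox mice, and was 0.809% in V123 with Sln. Total-count scaling moved the median of all genes from −0.009 to 0.098 in ventricles and from −0.002 to −0.073 in the interaction, where the share of calls higher in atria went from 49.8% to 34.5%; that scaling of the gene counts was chosen after seeing the data. Of 200 alternatives for pathway calls, 52 lost the call. A minimum of 10 counts in every library left no ventricular value for Bmp10, which rests on 5 to 38 counts in CUG960 libraries.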

Other observations

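Some marker genes were called by genotype among the lists given here. Of all tested genes, 5.49% were called in atria and 4.75% in ventricles. In atria, Hcn4 and Vsnl1 of the sinoatrial node list rose (2 of 6 tested), Pecam1 of the endothelial list fell (1 of 6), Tagln of the smooth muscle list rose (1 of 4) and Hey2 of the ventricular list fell (1 of 4). The median log2 fold change of the sinoatrial node list in atria was −0.14. Its gene Tbx18 was lower there but missed the fold limit (−0.53 ± 0.10, edgeR adjusted P = 0.010). Tbx3 of that list was at −0.63 ± 0.24 (edgeR adjusted P = 0.12). In ventricles, Nppa of the atrial list rose (1 of 8), Npr3 of the endocardial list rose (1 of 3), Myh11 and Tagln of the smooth muscle list fell (2 of 4), Ryr2 of the cardiomyocyte list fell (1 of 6) and Plin1 of the adipocyte list fell (1 of 3). No gene of the fibroblast, epicardial, pericyte or macrophage lists was called by edgeR in either chamber. At an unadjusted P value under 0.05 the numbers of genes in these lists were 5, 1, 2 and 0 for atria. For ventricles they were 2, 2, 3 and 2.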
